A study of Mus musculus with 8 samples.

Results

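Ccl3, Ccl4 and Cxcl2 encode 3 chemokines, the small secreted proteins that draw white blood cells along a gradient, and were followed here in RAW 264.7 cells, a line of macrophage-like cells that began in a BALB/c mouse. They were taken as the 3 genes whose probes carry their transcripts, out of 15203 genes measured, and each was represented by 1 probe with 1 spot per array. The 3 were selected on their treated over untreated ratios and their untreated levels on these same arrays, so their values are described and not tested. Cells were given *Lactobacillus acidophilus*, *Bacillus clausii* or *Bifidobacterium bifidum*, all of which are used as probiotics, at a multiplicity of infection of 1 (1 bacterium per cell) for 6 hours, or were left untreated for the same time. The comparison asks how each bacterium changed these transcripts in the cells. On every two-colour array the Cy5 dye marked the treated RNA and the Cy3 dye the untreated RNA, and the dyes were never swapped. *L. acidophilus* was hybridised on 2 of the arrays analysed here, although the design text speaks of 3 biological replicates, and the other bacteria on 3 each. No label ties an array to its own culture, so errors and p-values cover the spread among these hybridisations alone, and that spread may be technical.

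Ccl3 and Ccl4, known as macrophage inflammatory proteins 1-alpha and 1-beta, are CC chemokines. They draw monocytes, T cells and natural killer cells. Cxcl2, or macrophage inflammatory protein 2, is a CXC chemokine that binds Cxcr2 and draws neutrophils. Macrophages transcribe all 3 quickly when Toll-like receptors sense bacterial products, through the transcription factor NF-kappaB, and their messages carry AU-rich elements that shorten their life.

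Ccl3 and Ccl4 lie beside each other on the same mouse chromosome in the RefSeq annotation of assembly GRCm38.p6, with overlapping annotated spans and no other protein-coding gene starting between them. Cxcl2 lies on chromosome 5. RefSeq promoter sequences were at hand for Cxcl2 and Ccl3 and are shown because NF-kappaB is the best known regulator of these genes. Each runs over the 250 bases before the annotated start, with the kappaB consensus motif in capitals, at chr5:90903649-90903898 on the plus strand for Cxcl2 and at chr11:83649379-83649628 on the minus strand for Ccl3.
Cxcl2: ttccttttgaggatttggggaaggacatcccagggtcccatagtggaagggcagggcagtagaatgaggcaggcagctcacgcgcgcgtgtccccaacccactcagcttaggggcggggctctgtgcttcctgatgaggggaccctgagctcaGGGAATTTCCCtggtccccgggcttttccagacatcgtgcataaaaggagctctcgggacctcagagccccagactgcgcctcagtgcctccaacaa
Ccl3: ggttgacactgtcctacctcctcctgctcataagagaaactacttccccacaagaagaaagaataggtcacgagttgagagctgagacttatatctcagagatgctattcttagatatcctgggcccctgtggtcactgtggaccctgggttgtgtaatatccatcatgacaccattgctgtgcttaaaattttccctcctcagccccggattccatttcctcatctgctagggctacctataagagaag
The Cxcl2 promoter held 2 overlapping matches to the kappaB consensus, read on both strands, and the first of them, GGGAATTTCC, began 97 bases and ended 88 bases before the start. The Ccl3 window held none. The same consensus occurred in 7.25% of 32851 promoters of this length. The AP-1 motif TGANTCA, found in 6.75% of these promoters, and the TATA motif TATAAA, found in 12.4%, were in neither window on either strand. These matches describe letters in the windows and do not show that a factor binds there.

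The arrays came from 2 slides, and values are given by slide below because these genes differed between slides. Slide 1 held both *L. acidophilus* arrays and replicate 3 of *B. clausii* and of *B. bifidum*, and was scanned with an extended range. The other 4 arrays, replicates 1 and 2 of each of the latter bacteria, were on slide 2. The untreated level therefore varies with the slide, and *L. acidophilus* has no array on slide 2. *B. clausii* replicate 3 had 12543 probes well above background, against 21508 to 26473 on the other 7 arrays, its grid was not rated good, and it had a spread between repeated spots of 67.4% in Cy3, against 14.0% to 20.2% on the other arrays. The probes of Ccl3, Ccl4 and Cxcl2 were well above background in both channels on all 8 arrays and never saturated. The Cy5 spot of Cxcl2 on *B. clausii* replicate 3 was marked as non-uniform by the scanner software and gave no ratio.

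The Ccl3 ratio differed in sign between the slides with both bacteria that were present on both. With *L. acidophilus* the log2 ratio of treated over untreated cells was 0.33 and 0.25, with *B. clausii* it was −0.54 and −0.42 on slide 2 and 0.36 on slide 1, and with *B. bifidum* it was −0.85 and −0.75 on slide 2 and 0.55 on slide 1. All 4 slide 1 arrays lay above 0, between 0.25 and 0.55, and all 4 slide 2 arrays below, between −0.85 and −0.42, so the slides did not overlap within either strain present on both. A ratio above 0 on every slide 1 array and below 0 on every slide 2 array was found for 925 of 14903 genes, or 6.21%. Over all arrays the means were 0.29 ± 0.32 (SE, n = 2) with *L. acidophilus*, −0.20 ± 0.26 (SE, n = 3) with *B. clausii* and −0.35 ± 0.26 (SE, n = 3) with *B. bifidum*, the latter 2 being averages over values of opposite sign. Each SE over all arrays, here and below, rests on 1 spread pooled over the bacteria, which includes the slide difference. The 2 *L. acidophilus* arrays, both on slide 1, had an SD of 0.06 for Ccl3. On slide 2 Ccl3 was at 0.719 times the untreated level with *B. clausii* (log2 −0.48 ± 0.08, SD, n = 2) and at 0.574 times with *B. bifidum* (−0.80 ± 0.07, SD, n = 2). With median centring these were 0.454 and 0.295 times, or log2 −0.85 and −1.38 relative to the median gene of each array. In the scanner's own processed ratios *B. clausii* replicate 2 lay at 0.00 for Ccl3 and replicate 1 at −0.75, so the sign of the former depends on the normalization.

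Ccl4, the neighbour of Ccl3, showed the widest contrast between bacteria among the 3 genes. Its log2 ratio was −0.39 and −0.48 with *L. acidophilus*, 0.56 and 0.59 with *B. clausii* on slide 2 and −0.41 on slide 1, and −1.32 and −1.33 with *B. bifidum* on slide 2 and −0.53 on slide 1. *B. clausii* on slide 2 was the single condition with Ccl4 above the untreated level after loess, at 1.49-fold (log2 0.57 ± 0.03, SD, n = 2), though this sign turned with median centring, to −0.06, or 0.22 relative to the median gene of those arrays. *B. bifidum* on slide 2 gave the lowest values, at 0.400 times the untreated level (log2 −1.32 ± 0.01, SD, n = 2), a 2.50-fold excess in the untreated cells. On slide 1 all 4 arrays after loess lay within 0.14 of each other on the log2 scale whichever bacterium was used, between −0.53 and −0.39, whereas on slide 2 they spanned 1.92. With median centring the slide 1 arrays spanned 1.02, with *L. acidophilus* above 0 and the other bacteria below, and the slide 2 arrays 2.71. A ratio above 0 on both *B. clausii* arrays and below 0 on both *B. bifidum* arrays of slide 2 was found for 9.1% of genes. Over all arrays the means were −0.44 ± 0.26 (SE, n = 2) with *L. acidophilus*, 0.25 ± 0.21 (SE, n = 3) with *B. clausii* and −1.06 ± 0.21 (SE, n = 3) with *B. bifidum*. *B. bifidum* had Ccl4 below the untreated level on 3 of 3 arrays, on both slides. The direction with *L. acidophilus* turned with median centring in place of loess, to a mean of 0.31, or 0.17 relative to the median gene.

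After loess, Cxcl2 stood above the untreated level with *B. clausii* and close to it otherwise, an order that median centring changed. Its log2 ratio was 0.12 and 0.20 with *L. acidophilus*, 1.01 and 1.09 with *B. clausii* on slide 2, and −0.19 and 0.04 on slide 2 and 0.13 on slide 1 with *B. bifidum*. The *B. clausii* arrays of slide 2 averaged 2.07-fold (log2 1.05 ± 0.06, SD, n = 2), and the highest other array had 0.20. With median centring they had 0.38 and 0.52, a mean of 1.36-fold, below *L. acidophilus* at 0.88 and 0.62, a mean of 1.68-fold. Relative to the median gene of each array these values were 0.68 and 0.79 with *B. clausii* and 0.63 and 0.59 with *L. acidophilus*. *B. bifidum* on slide 2 then had a mean of −0.62, or −0.24 relative to the median gene. The 3 slide 1 ratios lay between 0.12 and 0.20 after loess and between 0.06 and 0.88 with median centring. The *B. clausii* array of slide 1 has no accepted ratio, and reading its marked spot all the same gave a log2 ratio of 0.02, which lowers the *B. clausii* mean to 0.71. The means over all arrays were 0.16 ± 0.10 (SE, n = 2) with *L. acidophilus* and −0.01 ± 0.08 (SE, n = 3) with *B. bifidum*. The latter has no direction of its own, since its arrays lie on both sides of 0.

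**Figure D1:**
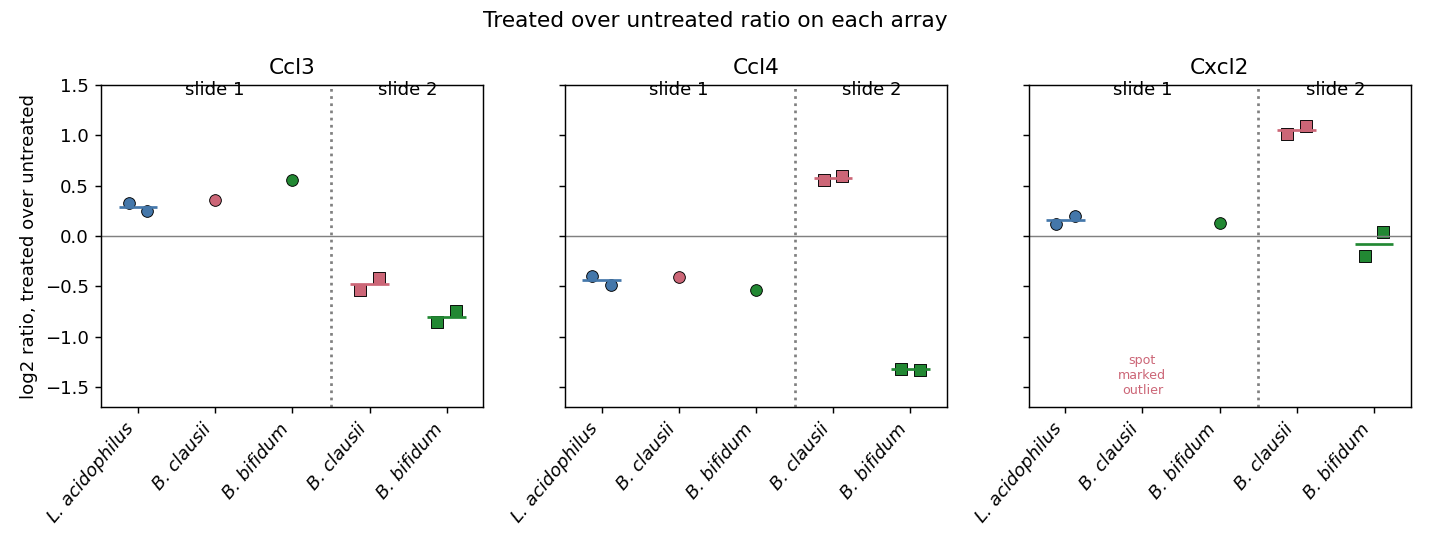
Log2 ratio of treated (Cy5) over untreated (Cy3) cells for Ccl3, Ccl4 and Cxcl2, 1 panel each, by bacterium and slide. Circles are slide 1 arrays, squares slide 2 arrays and short lines the mean of 2 arrays. Ccl3 lies above 0 on slide 1 and below 0 on slide 2, while Ccl4 and Cxcl2 separate *B. clausii* from *B. bifidum* on slide 2. With median centring in place of loess, Ccl4 turns sign with *L. acidophilus* (0.31) and with *B. clausii* on slide 2 (−0.06). Relative to the median gene of those arrays these values are 0.17 and 0.22.

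The difference between *B. clausii* and *B. bifidum* on slide 2 compares 2 arrays with 2 on the same slide, and a dye bias that is equal on all arrays cancels in it. Ccl4 was 3.72-fold higher relative to untreated cells with *B. clausii* than with *B. bifidum* (log2 difference 1.90), and the nearest arrays of the strains lay 1.87 apart. Cxcl2 was 2.18-fold higher (log2 difference 1.13, nearest arrays 0.96 apart). Ccl3 was 1.25-fold higher (log2 difference 0.32, nearest arrays 0.21 apart). The arrays of the strains did not overlap for any of the 3 genes, and both *B. clausii* arrays lay above both *B. bifidum* arrays for 34% of all genes. A gap of at least 1 between nearest arrays, which Ccl4 had and Cxcl2 just missed, occurred for 62 of 15172 genes, or 0.409%. With loess, median centring, no background correction and the scanner's processed signals the differences ran from 1.90 to 2.19 for Ccl4, from 1.05 to 1.13 for Cxcl2 and from 0.32 to 0.62 for Ccl3. On slide 1, with 1 array of each strain, Ccl4 differed by 0.12 and Ccl3 by −0.19, so the separation seen on slide 2 was not seen there.

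The level in untreated cells, which should be the same condition on every array, differed between slides for Ccl4 and Cxcl2. For Cxcl2 the normalized log2 Cy3 level was 13.93, 13.95, 12.32 and 14.14 on slide 1 (*L. acidophilus* 1 and 2, *B. clausii* 3 and *B. bifidum* 3) and 9.28, 9.04, 9.09 and 8.82 on slide 2 (*B. clausii* 1 and 2, then *B. bifidum* 1 and 2). Every slide 1 array lay above every slide 2 array, by 23.0-fold on average (log2 4.53), and by 30.8-fold without *B. clausii* replicate 3. The unprocessed median Cy3 signal of Cxcl2 was 44519, 40271, 1217 and 49675 on slide 1 and 578, 469, 483 and 294 on slide 2, so *B. clausii* replicate 3 lay nearer to slide 2 there. Unprocessed signals also differ with the scan range and overall brightness. For Ccl4 the untreated level was 16.19, 16.34, 16.58 and 16.13 on slide 1 and 13.22, 13.32, 13.24 and 13.49 on slide 2, in the same order of arrays. It was 7.96-fold higher on slide 1 (log2 2.99), again with no overlap, and 7.47-fold higher without *B. clausii* replicate 3. Among all genes 14.4% had every slide 1 array above every slide 2 array in the untreated channel, and 21.9% had every slide 1 array below.

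The untreated Ccl3 level did not divide in this way. It was 13.08, 13.30, 11.74 and 13.62 on slide 1 and 13.51, 12.62, 13.89 and 14.04 on slide 2. In unprocessed signal Ccl3 was 26394 to 33892 on 3 slide 1 arrays, 810 on *B. clausii* replicate 3 and 6052 to 14342 on slide 2. The normalized levels of the slides overlapped, and their means differed by −0.58 on the log2 scale, or by −0.18 without *B. clausii* replicate 3, whose level was the lowest of the 8. Ccl3, the neighbour of Ccl4 on the chromosome, thus lacked the step in normalized untreated level that Ccl4 had. In bulk RNA a smaller number of cells making a transcript and less transcript per cell cannot be told apart.

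The treated cells carried the same step between slides. In the Cy5 channel Ccl4 was 7.53-fold higher on slide 1 than on slide 2, with no overlap. The same was found for 15.8% of the genes with a treated value on every array. Cxcl2, with 3 and 4 arrays and so outside that share, was 24.4-fold higher on slide 1, also with no overlap. For Ccl3 the treated levels overlapped, with slide 1 higher by 1.35-fold on average. All 4 treated levels of Ccl4 on slide 1, between 15.60 and 16.17, lay above every slide 2 level, treated or untreated, the highest of which was 13.92. The highest Cxcl2 level on slide 2, 10.29 with *B. clausii* replicate 1, lay below the lowest untreated level on slide 1, 12.32. The difference of 1.05 between treated and untreated cells with *B. clausii* was thus smaller than the step of 4.53 between slides. Slide, scan range and the untreated RNA hybridised on the slide cannot be told apart as sources of this step.

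**Figure D2:**
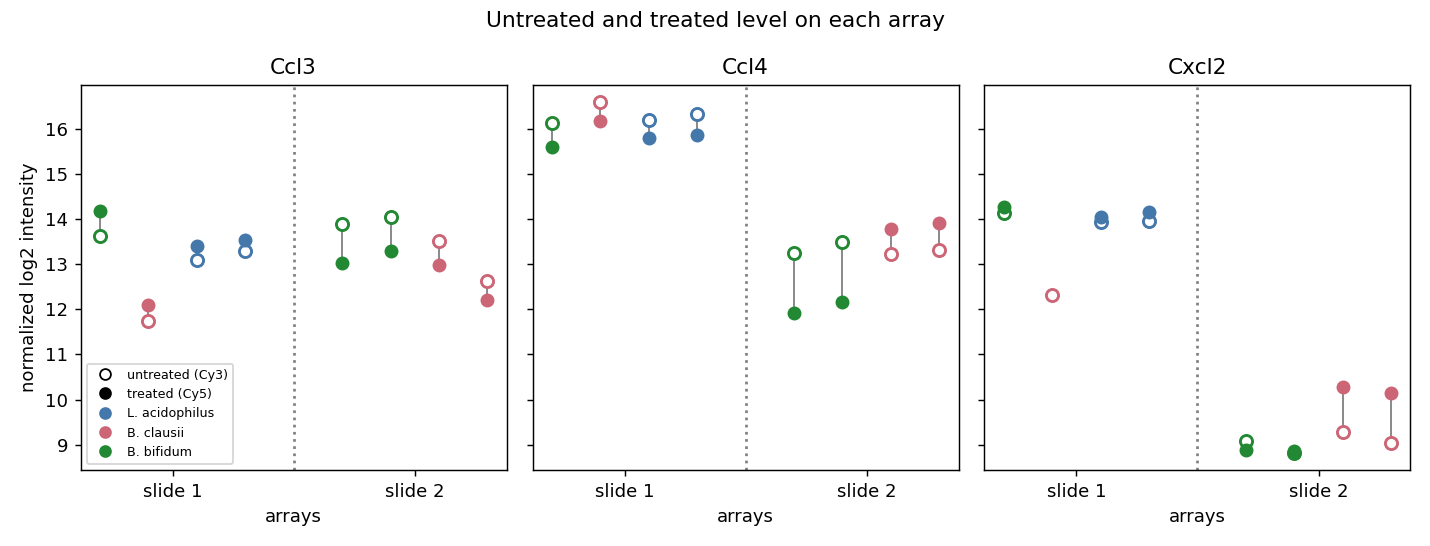
Normalized log2 intensity of untreated (open circles, Cy3) and treated (filled circles, Cy5) cells on each array for Ccl3, Ccl4 and Cxcl2, with slide 1 to the left of the dotted line, slide 2 to the right, and colour for the bacterium. Ccl4 and Cxcl2 lie higher on slide 1 in both channels (untreated means 16.31 against 13.32, and 13.58 against 9.06), Ccl3 does not, and levels are not comparable between panels because each probe has its own response.

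Set against all 15072 genes with an untreated value on every array, the Ccl4 and Cxcl2 steps were at the upper end. The median difference of slide 1 minus slide 2 was −0.09 on the log2 scale, and the 5 and 95 percentiles were −1.13 and 0.96, a span that holds Ccl3. A difference over 2 was found for 170 genes, or 1.13%. A difference at least that of Ccl4 occurred for 58 genes and at least that of Cxcl2 for 13, each count including the chemokine itself. With the Cy3 channel quantile normalized alone, the Ccl4 difference was 2.80.

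**Figure D3:**
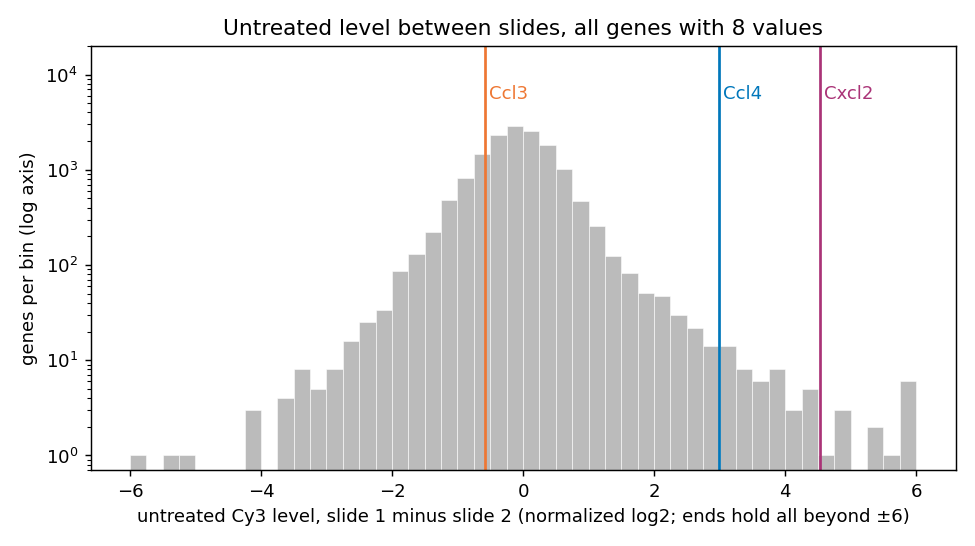
Histogram of the untreated Cy3 level on slide 1 minus slide 2 (normalized log2) for all genes with 8 values, with the number of genes per bin on a log axis and the end bins holding all genes beyond 6. Lines mark Ccl3 at −0.58, inside the bulk of genes, and Ccl4 at 2.99 and Cxcl2 at 4.53, in the upper tail.

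Other genes that macrophages switch on early after bacterial contact shared the step. Of 23 primary response and NF-kappaB target genes, 15 lay higher on slide 1 in untreated cells with no overlap and 1 lower, against 14.4% and 21.9% of all genes, with a median difference of 1.25 against −0.09 for all genes. Ptgs2, which makes prostaglandins, was 12.3-fold higher on slide 1, Tnf, the gene of tumour necrosis factor, 2.37-fold, and Il1b, that of interleukin 1 beta, 38.3-fold, though the Il1b level on slide 2 was low, with a normalized log2 value of 6.60. Of the 35 other chemokine and receptor genes, 10 lay higher and 8 lower with no overlap, against the same 14.4% and 21.9%, with a median difference of −0.04. Among them Ccl7 (17.9-fold) and Ccl2 (7.06-fold), which draw monocytes, lay higher as Ccl4 and Cxcl2 did. Cxcl14 (0.231-fold) and Ccl5 (0.445-fold) were among those that lay lower.

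The cells carried macrophage transcripts on both slides, with 7 of 9 macrophage markers well above background in untreated cells on all 8 arrays and all 9 on the 7 arrays other than *B. clausii* replicate 3. Their summed level was 62323 to 78474 on slide 1 and 34468 to 35124 on slide 2, a linear sum in which the brightest genes weigh most. Of the 9 markers, 3 lay higher on slide 1 with no overlap and 1 lower, against 14.4% and 21.9% of all genes. The lower one was Fcgr1, by 3.00 on the log2 scale, while Mpeg1 was higher by 1.68. The neutrophil list summed to 15744 to 72689 on slide 1 and 644 to 714 on slide 2 over 6 of 10 genes. That sum rested mostly on S100a8, at a log2 level of 13.82 to 16.13 on slide 1 and higher there by 7.53. Of the 6 genes, 2 lay higher on slide 1 with no overlap and 0 lower, against the same 14.4% and 21.9%. Camp, not well above background on slide 2, was at least 6.46-fold higher on slide 1, and Ngp and Ltf were not well above background on any slide 1 array. The osteoclast list summed to 6170 to 9290 and 2341 to 3532 over 9 genes. Of its 8 genes with an untreated value on every array, 4 lay higher on slide 1 with no overlap and 1 lower. The lymphocyte, dendritic cell, fibroblast and epithelial lists had no gene well above background on all 8 arrays, and without *B. clausii* replicate 3 the lymphocyte list had 2 of 7. The part of these transcripts in the Ccl4 and Cxcl2 step was not tested.

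Over all 8 arrays few of the other genes of the chemokine system passed, and few of all genes did. Of 56 listed ligands and receptors, 54 were on the array and 35 were bright enough to test. With *L. acidophilus* none passed (limma, 4 at an unadjusted p under 0.05), as for 0% of all genes. The lowest p among the ligands was that of Ccl2 (0.44 ± 0.08, SE, n = 2, limma adjusted p = 0.316). With *B. clausii* 1 of 35 passed against 4.74% of all genes (2.15% rose and 2.59% fell), namely Ccl5, which draws T cells, and which fell by 0.76 (log2, SE 0.12, n = 3, limma adjusted p = 0.0346). With *B. bifidum* 1 of 35 passed against 1.72% (0.5% rose and 1.22% fell), namely Ccl2, which rose by 0.60 (log2, SE 0.06, n = 3, limma adjusted p = 0.00739). At an unadjusted p under 0.05 (limma) there were 13 of the 35 with *B. clausii* and 3 with *B. bifidum*, a level at which all genes were not counted. The list medians were 0.01, 0.01 and −0.02, beside 0.01, −0.01 and −0.01 for all genes. The Ccl5 call and the Ccl2 call were both absent with the scanner's processed signals and with median centring. Without *B. clausii* replicate 3, 14 passed with *B. clausii* and 4 with *B. bifidum*, without *B. bifidum* replicate 3, 3 passed with *B. clausii*, and leaving out any other array ended the *B. clausii* call. Leaving out replicate 1 or 2 of *B. bifidum* ended the *B. bifidum* call, and leaving out replicate 1 of *L. acidophilus* gave 1 gene with that bacterium. The share of all genes passing was not counted for the fits with an array left out, so their counts cannot be set against it. With slide as a block, 2, 9 and 1 of the 35 passed with *L. acidophilus*, *B. clausii* and *B. bifidum*, against 2.74%, 25.2% and 14% of all genes. With the replicate number as a block, which for *B. clausii* and *B. bifidum* also parts the slides, 3, 7 and 6 passed, against 3.3%, 28.5% and 14.9%.

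Within slide 2, where Ccl4 and Cxcl2 separated the bacteria, 10 of these 35 genes rose and 9 fell with *B. clausii* against 55.9% of all genes called (25.6% rose and 30.3% fell). With *B. bifidum* 3 rose and 6 fell against 38.7% (15% and 23.7%). Cxcl10, which binds Cxcr3, had the same pair of signs as Ccl4, rising by 1.09 with *B. clausii* and falling by 0.54 with *B. bifidum* (log2, n = 2 each, limma adjusted p = 0.000126 and 0.000975). Cxcl14 fell with both, by 1.26 and 0.71. Cxcr2, the receptor of Cxcl2, was on the array but was not bright enough to test.

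**Figure D4:**
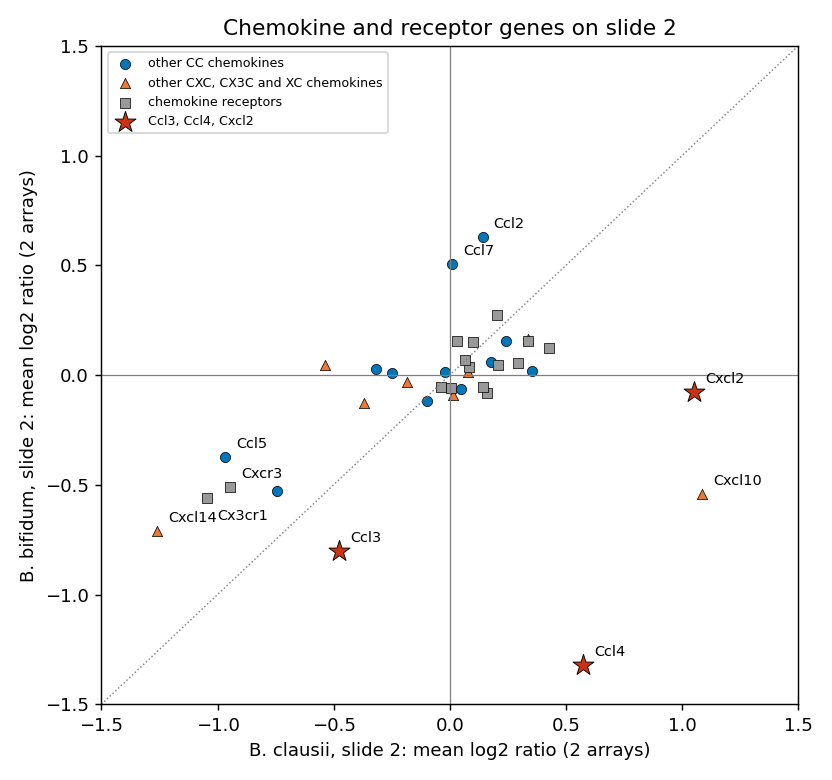
Mean log2 ratio on slide 2 with *B. clausii* (x axis, 2 arrays) and *B. bifidum* (y axis, 2 arrays) for Ccl3, Ccl4 and Cxcl2 (stars) and the other tested CC chemokines, other chemokines and receptors. The dotted diagonal marks equal ratios. Ccl4 (0.57, −1.32) and Cxcl2 (1.05, −0.08) lie far below it with Cxcl10 (1.09, −0.54), and Ccl3 (−0.48, −0.80) lies near it. With median centring the Ccl4 value with *B. clausii* turns to −0.06, or 0.22 relative to the median gene of those arrays.

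Genes that act above and beside these chemokines gave few calls over all arrays, where 4.74% of all genes passed with *B. clausii* and 1.72% with *B. bifidum*, and more within slide 2. Of 23 primary response and NF-kappaB target genes, 2 fell with *B. clausii*, Relb by 0.44 and Tnip1 by 0.64 (log2, SE 0.08 and 0.15, limma adjusted p = 0.0374 and 0.0477), and none passed with the others. The companions Ptgs2, Il1b and Tnf passed with no bacterium over all arrays. On slide 2 Ptgs2 rose by 0.79 with *B. clausii* (limma adjusted p = 0.000175), beside Cxcl2 at 1.05, and fell by 0.14 with *B. bifidum* (limma adjusted p = 0.0483), beside Cxcl2 at −0.08. Tnf and Il1b had −0.01 and −0.08 with *B. clausii* on slide 2 and did not pass (limma adjusted p = 0.904 and 0.157). Il1b was dim on slide 2, at a mean log2 level of 6.60 untreated and 6.56 treated. Its treated spot was well above background on 1 of 4 arrays there, so its ratio says little. Of 20 genes of Toll-like receptor signalling 1 fell with *B. clausii*, Irak3, a brake on that pathway, by 0.69 (limma adjusted p = 0.0407), and none passed with the others. Of 8 proteins that bind AU-rich elements none passed with any bacterium over all arrays. With slide as a block 8 of 23 primary response genes, 8 of 20 Toll-like receptor genes and 3 of 8 AU-rich element binders passed with *B. clausii*, against 25.2% of all genes. On slide 2 alone 10 rose and 6 fell, 1 rose and 14 fell, and 6 rose and 0 fell with *B. clausii*. Of all genes 55.9% were called there (25.6% rose and 30.3% fell). With *B. bifidum* 2 rose and 8 fell, 4 rose and 8 fell, and 2 rose and 3 fell, against 38.7% (15% and 23.7%). On slide 2 Zfp36, which speeds the decay of AU-rich messages, rose by 0.55 with *B. clausii* and fell by 0.55 with *B. bifidum* (limma adjusted p = 0.000471 and 0.000878), the same pair of signs as Ccl4.

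The genes whose log2 ratios lay nearest to each chemokine over the arrays were found by their mean absolute difference. For Ccl3 they were Fasn, Gramd1b and Kif21b, with differences of 0.09, 0.09 and 0.10 over 8 arrays among 14352 genes. Ccl4 had no gene as close, and its nearest were Sltm, Dnajc2 and Slc4a7, at 0.20, 0.24 and 0.25. For Cxcl2, over 7 arrays, they included Nmrk1 and Uchl5, at 0.11 and 0.12. Neither of the other 2 chemokines was among the 3 nearest genes of any of them.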

How the data were processed

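Spot and background brightness were deposited as linear intensity with the scanner software's log10 ratio of Cy5 over Cy3, made with Agilent Feature Extraction 10.7.3.1 per the file headers, while the submitters' processing notes name 10.5.1.1. The deposited value table equalled that log10 ratio within 0.005 on every array. From the median intensity, log2 ratios were computed with limma 3.58.1 in R 4.3.3 by normexp (offset 50) and loess within each array, with control spots at weight 0 and outlier-marked spots removed. Offset 50 understates differences of dim spots. Single-channel levels were log2 values after Aquantile. Of 41174 probes, 28598 were kept for standing well above background in Cy3 or Cy5 on 2 or more arrays, and probes were named through transcript accessions with a RefSeq table of GRCm38.p6, which named 29169 of 43379 probe features. The brightest probe stood for a gene. Strain means were fitted over all 8 arrays (lmFit, eBayes) and adjusted by Benjamini-Hochberg over all genes at 0.05. The 3 chemokines, the gene and marker lists and the comparisons were chosen with earlier results of these data known. Named genes were, from each list and strain, up to 3 that passed with the smallest p, or else up to 2 that did not. Genes named for slide 2, for their untreated level or as receptors were chosen after their values were seen. For each chemokine the 3 nearest were taken by mean absolute difference, without clones, predicted genes and saturated genes. Some genes that this rule or the lists hold are not reported here. The fit was run on simulated data with independent noise and the same change on every array. Those data held no slide difference, so they do not cover the differences between slides seen here. Alternatives covered background correction, scaling, filters, slide, replicate block, spread and left-out arrays. The number of arrays limits precision.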

Additional observations from a re-analysis of the deposited data

Results flagged for a closer look

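The untreated Cxcl2 level of *B. clausii* replicate 3 stood apart from the other slide 1 arrays, at 12.32 against 13.93 to 14.14, a gap of 0.882 of the range of the 4 arrays. Chance alone marks about 1 group in 20 in this way. The other 4 values separate arrays with opposite signs, and none of these differences was tested. The Ccl3 log2 ratio was higher on slide 1 than on slide 2 by 0.84 with *B. clausii* and by 1.35 with *B. bifidum*. The Ccl4 log2 ratio with *B. clausii* differed by −0.99 between slide 1 and slide 2. On slide 2 the Ccl4 log2 ratio was higher with *B. clausii* than with *B. bifidum* by 1.90.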

How the results depend on the processing

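Apart from single arrays left out, 92 chemokine ratios moved by less than the spread between arrays, 16 moved further and 5 moved further and turned sign. A further 6 turned sign within that spread, 5 of them Cxcl2 with *B. bifidum*, whose mean is near 0, and 1 Ccl4 with *B. clausii*, at −0.19 with median centring. Many of the 92 could not move, because each chemokine had 1 probe that never saturated and passed every filter. For Ccl3 and Ccl4 with *B. clausii* and *B. bifidum* the spread also held the slide difference. Ccl3 with *B. bifidum* thus counted as within it at −1.02 with median centring, against −0.35. The 92 therefore do not measure how stable the ratios are. With median centring, Ccl3 had 0.82 with *L. acidophilus* and −0.69 with *B. clausii*, Ccl4 0.31 (turned) with *L. acidophilus* and −1.67 with *B. bifidum*, and Cxcl2 0.75, 0.45 and −0.39 with *L. acidophilus*, *B. clausii* and *B. bifidum*. That centring left array medians of −0.61 to 0.25, and relative to them Ccl4 had 0.17 with *L. acidophilus* and 0.22 with *B. clausii* on slide 2. Scanner signals and the deposited table gave Ccl4 −0.72 with *L. acidophilus*, and the table gave Cxcl2 0.75 with *B. clausii*. With slide as a block, Ccl3 (−0.26, turned) and Cxcl2 (0.056) with *L. acidophilus*, which lacks slide 2, and Cxcl2 with *B. clausii* (1.16) moved. Slide 1 alone turned Ccl3 to 0.36 and 0.55 and gave Ccl4 −0.41 (turned) and −0.53 with *B. clausii* and *B. bifidum*. The marked Cxcl2 spot, kept after seeing the data, gave 0.71. Same-numbered *B. clausii* and *B. bifidum* arrays deviated together (r = 0.30 to 0.46, 3 pairs). The differently numbered ones on slide 2 did too (r = 0.37 and 0.26), so this was not particular to a shared number. Replicate 3 of both is slide 1, so a replicate block also parts the slides. The 4 same-numbered pairs with *L. acidophilus* did not deviate together (r = −0.09 to −0.06). The replicate block gave Ccl3 0.65 and Cxcl2 0.23 with *L. acidophilus*, Cxcl2 1.12 with *B. clausii*, and 3, 7 and 6 other chemokine and receptor genes passing. The untreated Ccl4 difference was 2.80 with Cy3 quantile normalized alone.

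Counts of other chemokine and receptor genes passing with *B. clausii* and *B. bifidum* were 1 and 1. They were 0 with scanner signals, the deposited table, median centring, slide 1 alone, an intensity trend with robust eBayes, or each strain's arrays alone. No filter and the strict filter gave 2 with *B. clausii*. Slide as a block gave 2 with *L. acidophilus* and 9 with *B. clausii*, and slide 2 alone 19 and 9 with *B. clausii* and *B. bifidum*. Leaving out 1 array gave 0 to 1, 0 to 14 and 0 to 4 with *L. acidophilus*, *B. clausii* and *B. bifidum*. The highest of the last 2 came without *B. clausii* replicate 3. All genes were not counted for these fits or for the filter changes. In the same order of bacteria, leaving out 1 array gave Ccl3 0.25 to 0.33, −0.48 to −0.03 and −0.80 to −0.10, Ccl4 −0.48 to −0.39, 0.07 to 0.57 and −1.32 to −0.92, and Cxcl2 0.12 to 0.20, 1.01 to 1.09 and −0.08 to 0.09. Untreated differences ran from −0.88 to −0.18 for Ccl3, 2.90 to 3.05 for Ccl4 and 4.34 to 4.95 for Cxcl2. The cause of these changes was not tested. *L. acidophilus* had no value on slide 2 alone, nor Cxcl2 with *B. clausii* on slide 1 alone.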
